A study of Mus musculus with 191 samples.

Results

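The daily rhythm of transcript levels in gut was described in the 18 RNA sequencing libraries whose labels give the tissue as gut and the treatment as anti Ly6G (1A8), out of 191 libraries in the series. These libraries come from mice whose neutrophils were to be depleted: clone 1A8 binds Ly6G, a surface protein of mouse neutrophils. The series set such mice against mice given control IgG in several tissues and around the day, to follow circadian transcription with and without neutrophils. There were 3 libraries at each of ZT 1, 5, 9, 13, 17 and 21 (Zeitgeber time, hours after lights on), and the 18 gut libraries from mice given IgG had the same layout. Every mouse behind these 36 libraries was C57BL/6 with the genotype labelled WT, and received 3 µg of antibody per g of body weight on 2 days, with tissue taken on the third day. The labels give 3 mice per group. The p-values rest on the spread of the libraries of both treatments around the fits described below, unless the 18 libraries were fitted alone. For the 24 h wave that spread holds departures of the times from the wave beside the spread between mice. Housing was either the normal facility or cabinets with inverted light, and no label ties a mouse to its housing, which therefore cannot be told apart from time. The labels name no gut segment, age or sex, and they place the check of neutrophil depletion in blood. The titles of the 3 IgG libraries of ZT 21 carry the letters bm where other IgG titles carry co, and the title of anti-Ly6G ZT 5 replicate 3 carries bis; the labels explain neither, and the groups follow the labelled tissue, treatment and time. In those IgG libraries the colon marker Hoxb13 was at 433, 363 and 424 units, within the range of the other 15 IgG libraries.

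The circadian clock is a loop of transcription that runs in most cells. The activators BMAL1 (gene Arntl), CLOCK and NPAS2 bind E-boxes and drive the Per, Cry, Nr1d and Dbp genes, whose products repress the loop or pass its time on to other genes. In the intestine the clock runs beside daily cycles of feeding, and the epithelium renews itself by constant division of crypt cells, so that nutrient handling and cell division are both known to vary with the time of day.

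Values are the authors' normalized signal per gene, scaled to library size and not per length, so levels are compared between libraries and not between genes. The depth recovered from the steps of the low values was 10174647 to 30885640 reads per library. Over the 36 libraries 1 read was worth 0.0319 to 0.101 units. Anti-Ly6G ZT 5 replicates 1 and 3 and ZT 1 replicate 1 were the deepest, at 30885640, 29166509 and 28194580 reads. IgG ZT 21 replicate 3 had 27578443 reads, and no other library passed 19321007. The part of depth in the results was not tested. Of 17223 genes in the table, 15158 had a mean of at least 1 unit over the 36 libraries and were tested. By 19 clock genes, 17 of the 18 libraries correlated best with libraries of their own ZT. Colon markers were abundant: Car1, a carbonic anhydrase of colonocytes, had a median of 941 units and Hoxb13, a homeobox gene of the distal hindgut, 449, against 0.191 for Fabp1 and 1.83 for Alpi, genes of small intestinal enterocytes. The tissue labelled gut therefore carried colon transcripts. Of 14 neutrophil marker genes 6 were in the table and 2 were tested. Ly6g was at 170.2, 121 and 92.3 units in the 3 libraries of ZT 1, 101, 134 and 104 at ZT 5, 168, 181 and 167 at ZT 9, 182, 153 and 205 at ZT 13, 142, 148 and 164 at ZT 17 and 183, 132 and 155 at ZT 21. Ly6g (chr15:75155240-75159126) encodes the antigen that the antibody binds, and its range of 92.3 to 205 units lay over that of the IgG libraries, 90.8 to 212. Cxcr2, the receptor through which neutrophils follow chemokines, lay between 1.33 and 3.67 units, against 1.58 to 3.39 with IgG. These transcripts were thus not lower in the libraries labelled anti Ly6G, and no other gene of the list was tested. Which cells they came from was not tested, so these values do not show whether neutrophils were depleted. In bulk tissue, fewer cells of a type and less RNA per cell cannot be told apart.

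A pair of the 18 anti-Ly6G libraries carried high levels of transcripts of other organs. In ZT 1 replicate 1 the seminal vesicle secretory genes Svs5, Svs2, Svs4 and Svs1 stood at 12477, 11230, 8842 and 4901 units, and Pbsn and Tgm4, secreted by the prostate, at 357 and 382 units. Across the other 16 libraries Svs5 reached 25.4 units, in ZT 1 replicate 2, and Pbsn 1.27 units in the same library. The 9 tested seminal vesicle markers lay between 933 and 12477 units in ZT 1 replicate 1. In all, 35 genes of that library were at 8 or more times their median over the 18 libraries and 4 or more times the next library, and they held 4.92% of its signal. Acta1, the actin of skeletal muscle, and Krt5, a keratin of basal epithelial cells, were also raised there, at 24.6 and 5.51 units against medians of 3.05 and 0.106. The skeletal muscle genes Ckm, Myh2, Mylpf and Tnnt3 were not, at 1.03, 1.00, 1.18 and 0.315 times their medians. Acta1 also reached 22.4 units in IgG ZT 9 replicate 2. Other IgG libraries held such transcripts at lower levels. IgG ZT 21 replicate 1 was at 40.1 units of Pbsn and 23.4 of Tgm4, against IgG medians of 0.0377 and 0.488. IgG ZT 21 replicate 3 was at 12.0 units of Svs5.

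ZT 13 replicate 3 carried enzymes of the exocrine pancreas. Amy2a5, pancreatic amylase, was at 309 units, the protease precursors Ctrb1, Cela2a and Cpb1 at 209, 202 and 95.2, and the lipase Cel at 87.4. Among the other 16 libraries ZT 21 replicate 2 was the next highest for Ctrb1 and Cela2a, at 17.8 and 16.2 units, and Amy2a5 did not pass 0.346. The 18 genes raised by the same rule held 0.178% of the signal. Of the 9 seminal vesicle, 3 prostate and 12 pancreas markers tested, 0 passed the 24 h test described below (limma, 8, 0 and 1 at an unadjusted p under 0.05). Genes such as Sva and Amy2a5, with medians of 0.0399 and 0.0405 units, owed most of their mean to 1 library. That library also widens their spread, so the lack of calls does not show how other genes are affected. Counts that change by over 1.5 times without ZT 1 replicate 1 and ZT 13 replicate 3 are given for the other 16 libraries too. Below, this pair is called the libraries with transcripts of other organs.

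**Figure D1:**
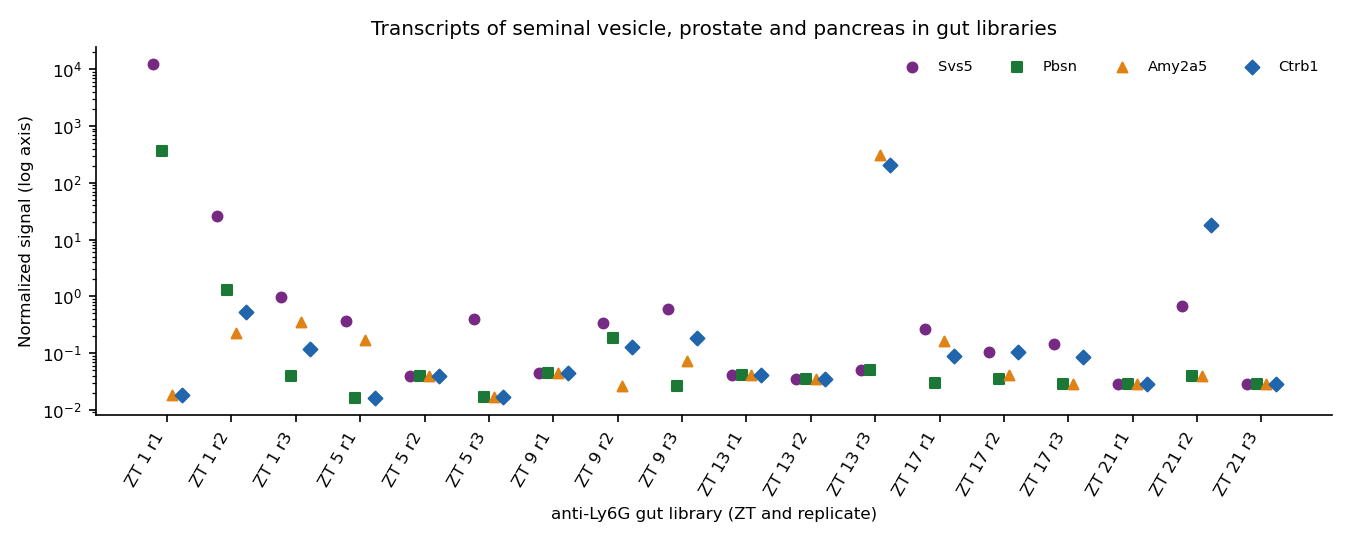
Normalized signal (log axis) of Svs5 (seminal vesicle), Pbsn (prostate), Amy2a5 and Ctrb1 (pancreas) in each of the 18 anti-Ly6G gut libraries (r1 to r3 are replicates). ZT 1 replicate 1 stands out at 12477 units of Svs5 and ZT 13 replicate 3 at 309 units of Amy2a5.

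A wave with a 24 h period (a cosine and a sine of ZT on log2(value + 1)) was fitted to each gene, and 3725 of 15158 genes (24.6%) passed at an adjusted p under 0.05 (limma F test, Benjamini-Hochberg). For each gene the amplitude, the time of the fitted peak and the fold between fitted peak and trough are given. That fold is on the log2(value + 1) scale and understates the change of genes near 1 unit. The called genes had a median fold of 1.33, 287 reached 2-fold and 20 reached 4-fold. Of those 20, 11 were core clock genes. The other 9 included E2f2, Cldn8, the immunoglobulin segment Igkv6-17 and 5 gene models without a common name (2310079G19Rik, Gm15998, Gm20425, Gm2174 and Gm38287). Without ZT 1 replicate 1 and ZT 13 replicate 3, 2987 genes (19.7%) passed, of which 2838 were among the 3725, and their peaks moved by a median of 0.208 h.

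Peaks were spread around the day. By windows of 4 h, 722 called genes peaked around ZT 1, 469 around ZT 5, 553 around ZT 9, 722 around ZT 13, 549 around ZT 17 and 710 around ZT 21. Without ZT 1 replicate 1 and ZT 13 replicate 3 the windows held 512, 424, 490, 450, 497 and 614 genes in the same order, so that the window around ZT 13 was no longer among the fullest. Strong waves were unevenly placed: 120 of the 287 genes with at least 2-fold waves peaked around ZT 1 and 72 around ZT 21, against 18 around ZT 5 and 18 around ZT 17. Genes of DNA replication or mitosis, as listed below, made up 23 of the 120. With ZT as a factor in place of a wave, 4641 genes (30.6%) passed, 1492 of them not called by the wave.

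**Figure D2:**
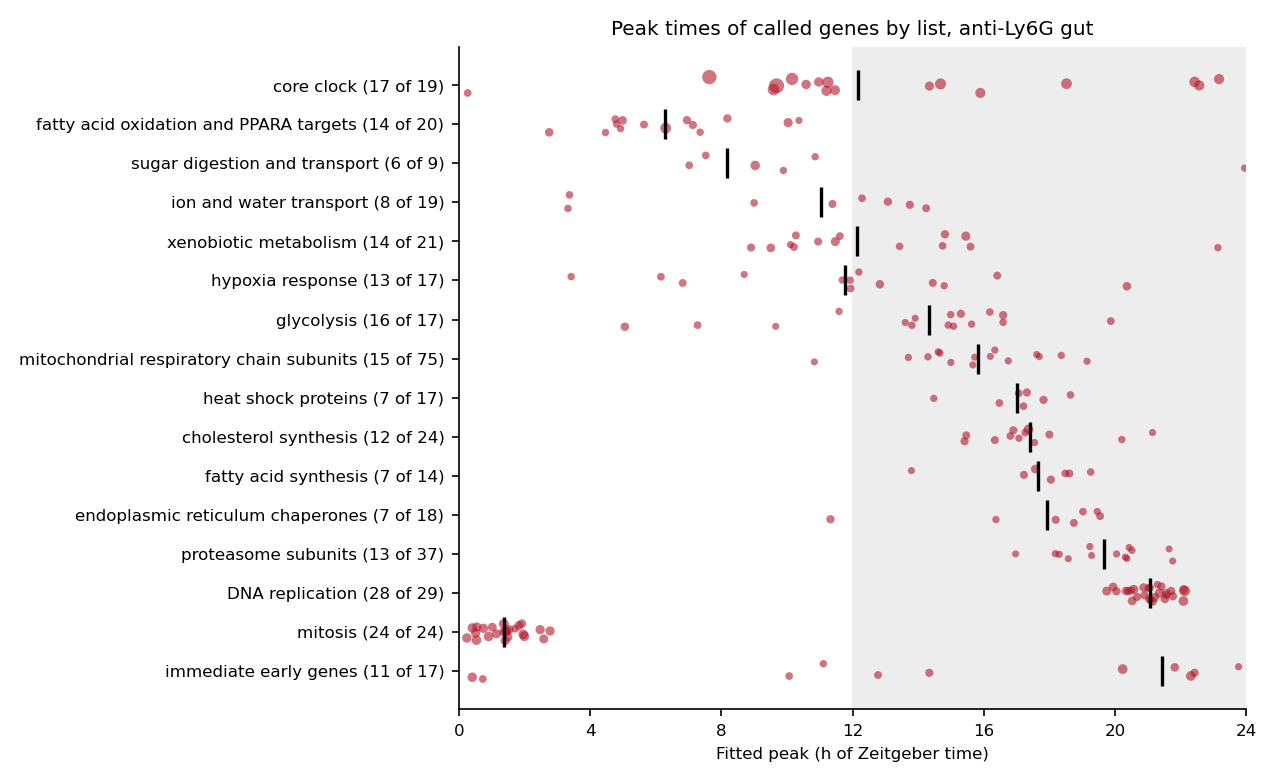
Fitted 24 h peak (x axis, hours of ZT) of every called gene in 16 lists. Each point is a gene with its size growing with amplitude, the black bar is the circular mean, shading marks ZT 12 to 24, and the numbers give called of tested genes. DNA replication genes lie between 19.7 and 22.1 h, mitosis genes between 0.241 and 2.78 h, and core clock genes are spread over the day.

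Core clock genes held 11 of the 20 waves of 4-fold or more. Of 19, 17 passed the 24 h test, against 24.6% of all genes, and their median fold was 4.12; Rora (adjusted p = 0.25) and Bhlhe40 (0.058) did not pass. The activator Arntl (chr7:113207465-113314126, GRCm38) was high at the end of the night and the start of the day. Arntl was at 79.2, 71.8 and 80.8 units in the 3 libraries of ZT 1, 46.6, 35.7 and 37.5 at ZT 5, 25.6, 20.1 and 20.1 at ZT 9, 21.2, 28.00 and 23.3 at ZT 13, 52.5, 36.02 and 55.2 at ZT 17 and 84.2, 71.1 and 89.7 at ZT 21. The 6 libraries of ZT 21 and ZT 1 were all above the other 12. Its wave was 4.09-fold, peak 22.6 ± 0.227 h (SE), adjusted p = 3.7e-14 by limma. Npas2, a partner of BMAL1 that can stand in for CLOCK, followed it with a 4.12-fold wave with a peak at 23.2 h, and Clock varied less (1.47-fold, peak 0.265 h). Nfil3, a repressor of D-box genes, peaked with them at 22.4 h (4.62-fold).

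The E-box driven repressors and outputs peaked in the second part of the light phase. Nr1d1 was at 30.6, 71.4 and 24.7 units in the 3 libraries of ZT 1, 141, 213 and 191 at ZT 5, 170.1, 168 and 162 at ZT 9, 71.6, 43.95 and 71.2 at ZT 13, 9.35, 16.95 and 8.47 at ZT 17 and 3.38, 3.94 and 3.405 at ZT 21. Nr1d1 (chr11:98767932-98775333), which encodes REV-ERBα, a repressor of Arntl, was highest at ZT 5 and ZT 9, whose ranges overlapped, and lowest at ZT 21, where all 3 libraries were below the other 15. Its fitted wave was 40.1-fold, peak 7.63 ± 0.212 h (SE), adjusted p = 1.1e-14. Its relative Nr1d2 reached 8.095-fold at 9.59 h. Dbp was at 1.79, 2.37 and 1.38 units in the 3 libraries of ZT 1, 15.2, 35.5 and 36.3 at ZT 5, 96.7, 158 and 131 at ZT 9, 61.1, 22.9 and 71.6 at ZT 13, 4.13, 7.097 and 4.16 at ZT 17 and 1.49, 1.59 and 1.17 at ZT 21. Dbp (chr7:45705088-45710203), an activator at D-boxes, had all 3 ZT 9 libraries above the other 15, and its wave was the largest of any core clock gene (64.5-fold, peak 9.68 ± 0.226 h (SE), adjusted p = 3.7e-14). The related factors Tef and Hlf peaked later, at 11.2 and 11.5 h, with 7.66-fold and 3.53-fold waves. Ciart, a repressor of CLOCK and BMAL1, rose from a mean of 1.27 ± 0.398 units at ZT 1 to 29.4 ± 6.47 at ZT 9 (SD, n = 3) and had an 11.9-fold wave at 10.2 h.

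The Period and Cryptochrome genes followed in sequence. Per1 and Per3 peaked at 10.97 ± 0.6600 h (SE) and 11.2 ± 0.3099 h (SE), with 2.79-fold and 4.05-fold waves. Per2 was at 50.6, 26.6 and 33.96 units in the 3 libraries of ZT 1, 28.9, 39.9 and 34.4 at ZT 5, 71.97, 118 and 117 at ZT 9, 202, 180.1 and 236 at ZT 13, 157, 178 and 121 at ZT 17 and 96.6, 90.3 and 83.8 at ZT 21. All 3 ZT 13 libraries of Per2 (chr1:91415982-91459324) were above the other 15, and its wave was 6.32-fold, peak 14.7 ± 0.272 h (SE), adjusted p = 8.7e-12. Cry2 peaked with Per2 at 14.3 h (2.598-fold), and Cry1, the latest of the repressors, at 18.5 h (5.27-fold, adjusted p = 1.8e-07). Among the 16 genes listed as clock modifiers or close outputs 9 passed (56.25%, against 24.6% of all tested genes). The largest were Usp2, a deubiquitinase of clock proteins, with a 3.51-fold wave with a peak at 12.4 h, Lonrf3 with a 2.35-fold wave with a peak at 20.7 h and Cipc, an inhibitor of CLOCK, with a 2.15-fold wave with a peak at 10.46 h.

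**Figure D3:**
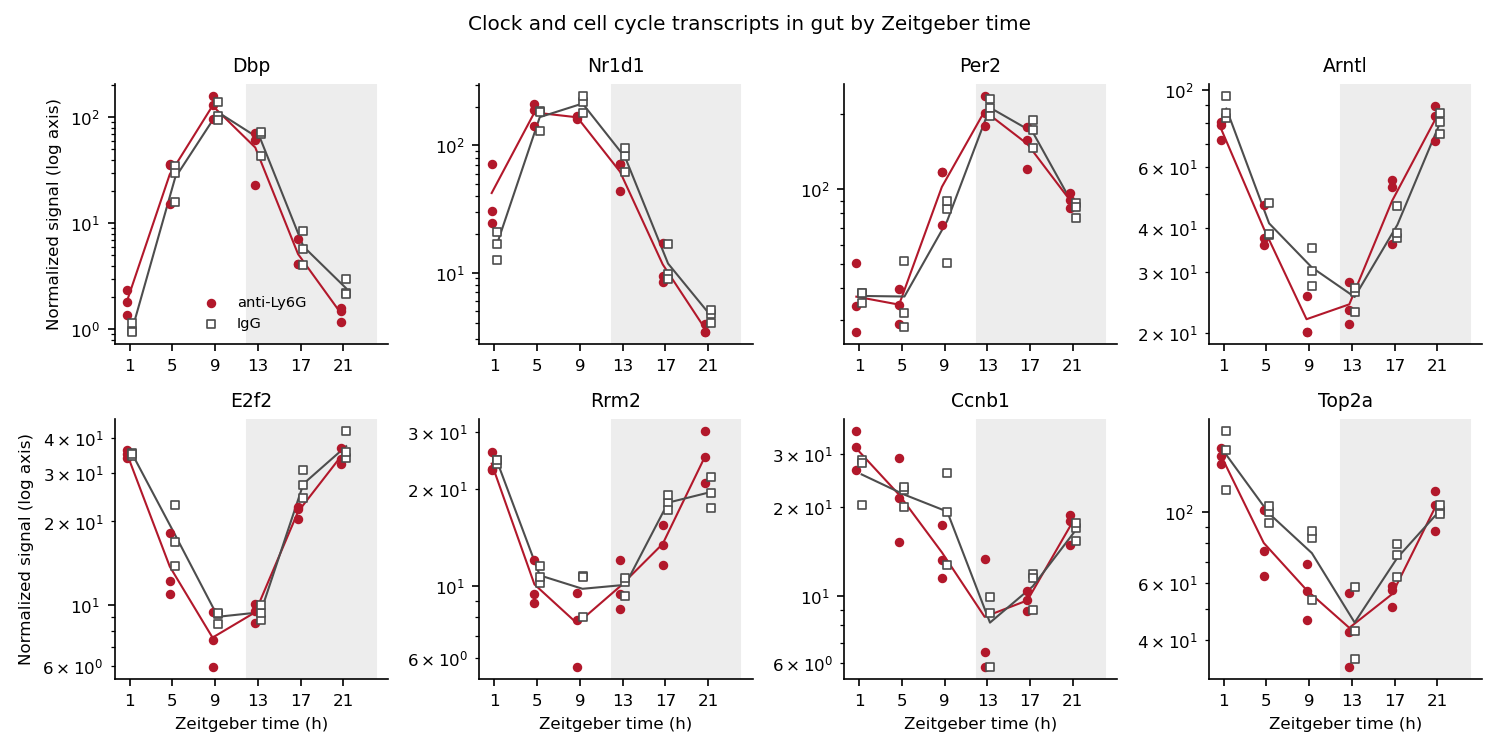
Normalized signal (log axis) of 4 clock genes (top) and 4 cell cycle genes (bottom) by ZT in gut. Filled circles are anti-Ly6G libraries and open squares IgG libraries, lines join the means of 3, and shading marks ZT 12 to 24. Dbp, Nr1d1 and Per2 are high in turn from ZT 5 to ZT 13, while Arntl, E2f2 and Rrm2 are high at ZT 21 and ZT 1 and Ccnb1 and Top2a at ZT 1.

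The called clock genes differed in the sequence upstream of their starts. The 250 bases before each RefSeq start (GRCm38.p6) were searched on both strands for the E-box CACGTG, the palindrome that BMAL1 and its partners bind. It was found in 5 of 15 called core clock genes with a sequence, against 9.600% of the 10909 tested genes with one. The stretches around the sites are shown because they belong to genes with peaks at 10.2 to 18.5 h, with the E-box in capitals. They lie at chr3:95882252-95882359 (Ciart, minus strand), chr11:69098768-69098803 (Per1, plus strand), chr15:81811261-81811296 (Tef, plus strand), chr6:145865553-145865588 (Bhlhe41, minus strand) and chr10:85185094-85185129 (Cry1, minus strand).
Ciart: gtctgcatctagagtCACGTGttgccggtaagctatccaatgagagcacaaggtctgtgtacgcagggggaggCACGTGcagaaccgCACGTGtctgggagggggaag
Per1: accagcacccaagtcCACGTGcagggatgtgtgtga
Tef: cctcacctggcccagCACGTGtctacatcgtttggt
Bhlhe41: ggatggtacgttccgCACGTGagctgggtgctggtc
Cry1: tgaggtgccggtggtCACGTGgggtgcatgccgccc
Ciart held 3 E-boxes in this window, starting 116, 58 and 44 bases before its start, and the other 4 genes held 1 in the window shown. The windows of Nr1d1, Nr1d2, Dbp, Per3, Hlf and Cry2 held no E-box, although Per3, Hlf and Cry2 peaked at 11.2, 11.5 and 14.3 h. The D-box TTATGNAA was found in 2 of 15 called core clock genes (Per1 and Per3), against 2.32% of tested genes. A match describes the letters of the window, and sites farther from the start were not searched.

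All 17 core clock genes that passed also passed in IgG gut, where 5091 genes (33.6%) passed in all, and Bhlhe40 passed there too. Each of the 17 had an earlier fitted peak in anti-Ly6G than in IgG libraries: the peak time in anti-Ly6G minus that in IgG ran from -1.41 h (Per1) to -0.0836 h (Clock), with a median of -0.548 h. Of all 2659 genes called in both treatments, 1410 had the earlier peak in anti-Ly6G. Other lists leaned to 1 side as well. The peak was earlier in 24 of 24 mitosis genes, but in 3 of 27 DNA replication genes and 0 of 11 proteasome genes called in both. For Npas2 the shift was -0.964 h (95% interval -1.53 to -0.397, not adjusted for the number of genes) and for Dbp -0.442 h (-1.07 to 0.189). The interval lay below 0 for 6 of the 17, among them Arntl, Npas2, Cry2, Nr1d1 and Nr1d2. These genes are read in the same libraries, so their shifts are not separate observations. In the test of the difference of the wave between treatments the smallest adjusted p of a core clock gene was 0.669 (Npas2, limma), and 0% of all genes passed.

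Outside the core clock, the 10 smallest p-values belonged to genes of several roles. E2f2 came first and is described with the cell cycle. Cldn8 was at 248, 265 and 216 units in the 3 libraries of ZT 1, 196, 157 and 129.9 at ZT 5, 84.8, 75.8 and 66.4 at ZT 9, 56.4, 111 and 62.3 at ZT 13, 173, 141 and 174 at ZT 17 and 263, 258 and 259.9 at ZT 21. Cldn8 (chr16:88560828-88563183) encodes a claudin that seals the paracellular path of the distal colon, and all 6 libraries of ZT 21 and ZT 1 were above the other 12. Its wave was 4.04-fold, peak 22.9 ± 0.311 h (SE), adjusted p = 2.1e-10. Cpm, a carboxypeptidase of the cell surface, took a like course (a 3.76-fold wave with a peak at 22.7 h). Spint1, an inhibitor of epithelial serine proteases, rose from 184 ± 11.03 units at ZT 1 to 338 ± 30.7 at ZT 9 (SD, n = 3; a 1.88-fold wave with a peak at 10.8 h). Car2, a carbonic anhydrase, rose from 928 ± 26.1 at ZT 1 to 1801 ± 236 at ZT 13 (a 1.895-fold wave with a peak at 13.1 h). Smim24 and Plekhg6 peaked at 11.9 and 13.7 h with 2.57-fold and 1.94-fold waves. The rest of these 10 were Pgk1, Cipc and Pbk. Among the largest waves of each window, Mt2 apart, Krt17, a keratin, had a 2.62-fold wave with a peak at 5.59 h, Slc37a2, a sugar phosphate exchanger, a 2.47-fold wave with a peak at 4.201 h, Bco2, a carotenoid oxygenase, a 2.85-fold wave with a peak at 3.69 h, Ccbl1, a kynurenine aminotransferase, a 3.76-fold wave with a peak at 13.7 h, and Tppp3, a tubulin binding protein, a 3.43-fold wave with a peak at 18.2 h. Krt17 did not pass with ZT 5 left out (adjusted p = 0.44).

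DNA replication genes rose together in the late night. Of 29, 28 passed (96.6%, against 24.6% of all tested genes). All 28 peaked within 3 h of their mean at 21.1 h, from Cdc6 at 19.7 h to E2f2 at 22.1 h. Their median fold was 1.97; Gins2, a subunit of the replicative helicase, was the member that did not pass (adjusted p = 0.077). E2f2 was at 34.1, 35.1 and 36.2 units in the 3 libraries of ZT 1, 18.1, 12.2 and 10.9 at ZT 5, 9.41, 5.93 and 7.45 at ZT 9, 8.600, 10.1 and 9.51 at ZT 13, 22.1, 20.4 and 22.6 at ZT 17 and 36.95, 32.4 and 33.7 at ZT 21. E2f2 (chr4:136172394-136196057), a transcription factor of S phase genes, had its 6 libraries of ZT 21 and ZT 1 above the other 12 (4.88-fold, peak 22.1 ± 0.226 h (SE), adjusted p = 3.7e-14). Rrm2, the inducible subunit of ribonucleotide reductase, went from 7.66 ± 1.956 units at ZT 9 to 25.4 ± 4.703 at ZT 21 (SD, n = 3; a 3.19-fold wave with a peak at 22.1 h). The licensing factor Cdc6, the helicase subunit Mcm5 and the sliding clamp Pcna had waves of 2.39-fold, 2.36-fold and 1.79-fold. Uhrf1, which maintains DNA methylation behind the fork, had a 2.67-fold wave with a peak at 21.4 h.

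Mitosis genes followed 4.33 h later by their mean peak, at 1.39 h. All 24 passed, against 24.6% of all tested genes, and all 24 lay within 3 h of that mean, with a median fold of 2.66. Ccnb1 was at 26.5, 35.8 and 31.7 units in the 3 libraries of ZT 1, 15.2, 29.2 and 21.4 at ZT 5, 17.4, 11.6 and 13.2 at ZT 9, 13.3, 6.504 and 5.79 at ZT 13, 10.46, 9.72 and 8.91 at ZT 17 and 14.9, 17.9 and 18.8 at ZT 21. Ccnb1 (chr13:100778650-100786570), cyclin B1, had its lowest means at ZT 13 and ZT 17, and its ZT 1 libraries overlapped ZT 5 replicate 2 at 29.2 units (3.31-fold, peak 1.99 ± 0.445 h (SE), adjusted p = 3.8e-07). Top2a was at 141, 159 and 149 units in the 3 libraries of ZT 1, 75.8, 101 and 63.2 at ZT 5, 68.7, 46.1 and 56.9 at ZT 9, 55.8, 42.2 and 32.9 at ZT 13, 58.7, 57.2 and 50.7 at ZT 17 and 87.1, 105 and 116 at ZT 21. All 3 ZT 1 libraries of Top2a, the topoisomerase that untangles chromosomes, were above the other 15 (a 3.14-fold wave with a peak at 0.535 h). The mitotic kinesins Kif20a and Kif11 had 3.65-fold and 3.21-fold waves with peaks at 1.37 and 0.902 h, and Mki67, the Ki-67 antigen of dividing cells, a 2.85-fold wave at 1.37 h. ZT 5 replicate 2 stood apart from the other ZT 5 libraries: averaged over the 24 genes, log2(value + 1) was 0.581 above its mean over the 18 libraries there, against -0.004 and -0.010 in replicates 1 and 3. Without ZT 1 replicate 1 and ZT 13 replicate 3, 28 and 24 genes of these lists passed. In IgG gut, 27 and 24 genes of the lists passed, with mean peaks of 20.3 and 1.89 h.

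Promoter sequence was not used to choose the mitosis genes. The box CCAAT was found on either strand of the 250 bases before the start of 17 of 19 genes with a sequence, against 39.96% of tested genes, and the letters TTTGAA, known as the CHR element of cell cycle genes, in 7 of 19 against 13.03%. For called DNA replication genes the counts were 15 of 25 and 4 of 25. CCAAT was not particular to mitosis genes. It was found in 7 of 7 called endoplasmic reticulum chaperones, 8 of 8 cholesterol synthesis genes and 11 of 15 core clock genes, but in 1 of 6 heat shock genes. Windows of Cdc20, an activator of the anaphase promoting complex, Ccnb2, cyclin B2, and Cdk1, the mitotic kinase, are shown as examples of the 7 genes that held both (the others were Kif11, Mki67, Top2a and Ube2c), with CCAAT or its complement ATTGG and TTTGAA in capitals. They lie on the minus strand at chr4:118437344-118437411, chr9:70421556-70421736 and chr10:69352913-69353135, in that order.
Cdc20: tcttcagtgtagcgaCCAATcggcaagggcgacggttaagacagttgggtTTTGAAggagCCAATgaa
Ccnb2: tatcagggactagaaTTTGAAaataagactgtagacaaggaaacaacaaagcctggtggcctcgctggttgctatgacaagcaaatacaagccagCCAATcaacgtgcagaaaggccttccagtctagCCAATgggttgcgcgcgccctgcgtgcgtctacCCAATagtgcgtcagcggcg
Cdk1: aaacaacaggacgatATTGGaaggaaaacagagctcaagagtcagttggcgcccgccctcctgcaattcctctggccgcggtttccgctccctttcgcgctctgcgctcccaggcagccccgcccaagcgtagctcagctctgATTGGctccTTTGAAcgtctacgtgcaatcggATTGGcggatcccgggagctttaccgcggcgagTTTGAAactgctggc
Cdc20, Ccnb2 and Cdk1 had fitted waves of 2.39-fold, 2.66-fold and 2.56-fold with peaks at 2.59, 2.78 and 0.543 h.

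**Figure D4:**
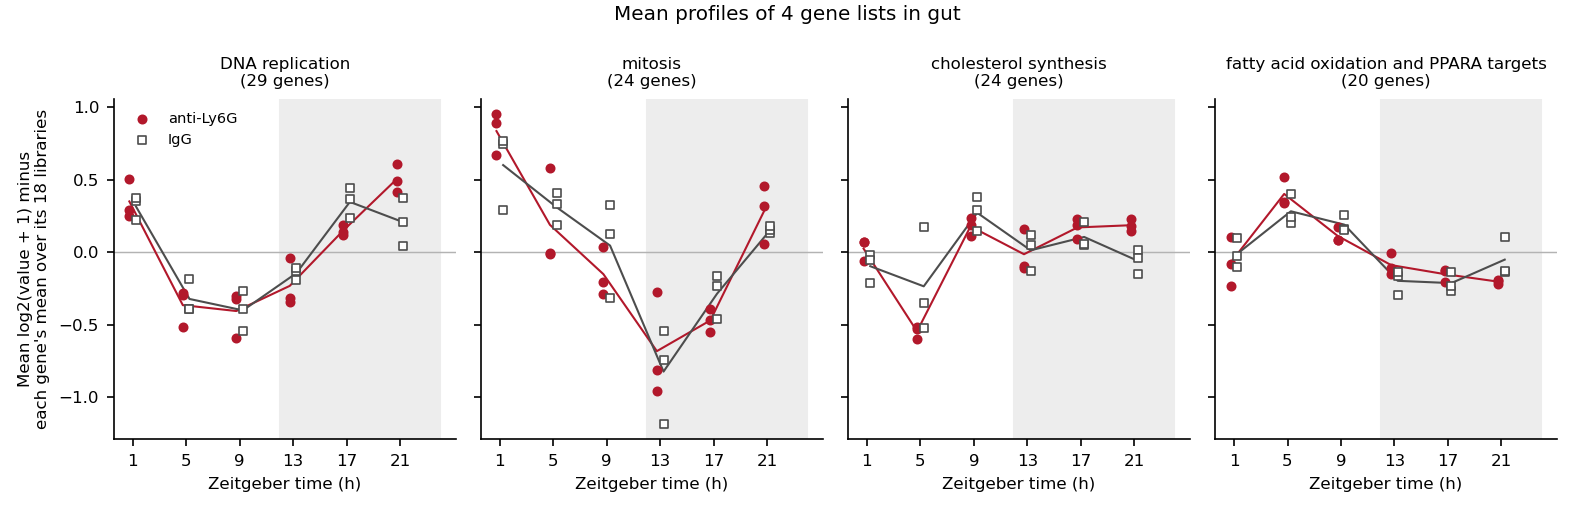
Mean over a list of log2(value + 1) minus each gene's mean over the 18 libraries of its treatment, by ZT, for 4 lists with all tested members. Filled circles are anti-Ly6G libraries, open squares IgG libraries, lines join the means of 3, and shading marks ZT 12 to 24. DNA replication is highest at ZT 21 and mitosis at ZT 1 in anti-Ly6G libraries, and cholesterol synthesis dips at ZT 5, to between -0.597 and -0.515, where 1 of the 3 IgG libraries is at 0.172.

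Genes of cholesterol synthesis were low at ZT 5. Of 24, 12 (50%, against 24.6% of all tested genes) passed the 24 h test with a mean fitted peak at 17.4 h. Fdps was at 102, 103 and 99.7 units in the 3 libraries of ZT 1, 51.96, 48.2 and 52.4 at ZT 5, 119, 105 and 108 at ZT 9, 136, 88.8 and 107 at ZT 13, 105, 109 and 113 at ZT 17 and 114, 117 and 115 at ZT 21. Fdps makes farnesyl diphosphate, and its ZT 5 libraries were all below the other 15 (1.72-fold, peak 16.9 ± 1.04 h (SE), adjusted p = 0.019). Counted after the values were seen and with no test, 17 of the 24 genes had all 3 ZT 5 libraries below the other 15, against 0.706% of all tested genes. They included Hmgcs1, which makes HMG-CoA in the cytosol (means of 249.6 ± 6.14 units at ZT 5 and 437 ± 49.4 at ZT 9), and Sqle, squalene epoxidase (72.3 ± 1.84 and 139 ± 10.48; SD, n = 3 each). In IgG gut 2 of the 24 genes had this course, against 0.752% of tested genes. Averaged over the list, the IgG libraries of ZT 5 were at 0.172, -0.353 and -0.526 around their mean of 18, so replicates 2 and 3 were low and replicate 1 was not. The anti-Ly6G libraries of ZT 5 were at -0.597, -0.515 and -0.528 by this measure. Replicate 2 had 12328492 reads, and replicates 1 and 3 had 30885640 and 29166509. The part of depth in the dip was not tested. The smallest adjusted p of a difference of the wave between treatments among the 24 genes was 0.677 (limma). With ZT 5 left out, Fdps and Sqle no longer passed the 24 h test (adjusted p = 0.87 and 0.28). Fdps also did not pass with ZT 5 replicate 1, 2 or 3 left out (adjusted p = 0.074, 0.083 and 0.073) or with ZT 21 left out (0.052).

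Fatty acid synthesis dipped at the same time and fatty acid oxidation was high. Of 14 synthesis genes 7 (50%, against 24.6% of all tested genes) passed, with a mean peak at 17.6 h. Scd2 was at 1674, 1680.2 and 1351 units in the 3 libraries of ZT 1, 745, 809 and 648 at ZT 5, 1344, 1511 and 1366 at ZT 9, 1654, 1600.3 and 1735 at ZT 13, 1936, 1790.3 and 1781 at ZT 17 and 1786, 1740.4 and 1882 at ZT 21. Scd2, a desaturase, had its 3 ZT 5 libraries at 648 to 809 units and the other 15 above them (2.06-fold, peak 17.6 ± 0.579 h (SE), adjusted p = 2.8e-05). Srebf1, the transcription factor of the pathway, and Fasn, fatty acid synthase, had waves of 1.75-fold and 1.68-fold with peaks at 18.04 and 17.2 h. Among 20 genes of fatty acid oxidation and PPARA targets, 14 (70%) passed with a mean peak at 6.28 h.

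Genes of the carnitine shuttle and of beta oxidation were high at ZT 5. Cpt1a was at 204, 274 and 269.7 units in the 3 libraries of ZT 1, 362, 320.5 and 311 at ZT 5, 233, 241 and 238 at ZT 9, 177, 239 and 202 at ZT 13, 234, 205 and 215 at ZT 17 and 207, 208 and 199 at ZT 21. Cpt1a, which admits fatty acids to the mitochondrion, had its 3 ZT 5 libraries above the other 15, as had Hadha, Hadhb, Acadl, Acadm, Acaa2 and Cpt2. These 7 of 20 were counted after the values were seen, against 0.858% of tested genes, and in IgG gut 1 of the 20 (Cpt1a) had this course, against 0.402%. Of these 7, Cpt2 and Acadm did not pass the 24 h test (adjusted p = 0.96 and 0.056). Creb3l3, a partner of PPARA, peaked later, at 10.03 h (2.55-fold), and Ppara itself did not pass (0.87). The summed level of 12 smooth muscle markers was 6989.8 to 7468 units at ZT 1, 8449 to 10549 at ZT 5 and 7959.7 to 11389 at ZT 9. It was 7946 to 9041 units at ZT 13, 6755 to 8172.5 at ZT 17 and 8577 to 9548 at ZT 21. The ZT 5 range thus overlapped those of ZT 9, 13 and 21. Of the 12, 3 (25%, against 24.6% of all tested genes) passed (Actg2, Cnn1 and Lmod1). The part of muscle content in the ZT 5 pattern was not tested.

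Most glycolysis genes peaked in the first part of the night. Of 17, 16 passed, 12 of them within 3 h of their mean peak at 14.3 h, with a median fold of 1.35; Pfkp did not pass (adjusted p = 0.28). Pgk1 was at 482, 402 and 394 units in the 3 libraries of ZT 1, 328, 369 and 338 at ZT 5, 423, 479 and 480.4 at ZT 9, 609.7, 607 and 602 at ZT 13, 626, 682 and 607 at ZT 17 and 598, 555 and 605 at ZT 21. Pgk1, phosphoglycerate kinase, was lowest at ZT 5, where all 3 libraries were below the other 15 (1.84-fold, peak 16.6 ± 0.293 h (SE), adjusted p = 5.9e-11). Slc16a3, the lactate exporter, had a 1.74-fold wave with a peak at 15.3 h, and Ldha, lactate dehydrogenase, a 1.43-fold wave with a peak at 16.2 h. Regulators peaked in the light phase: Pfkfb3, which makes the activator of phosphofructokinase, peaked at 5.06 h (1.94-fold) and Pdk1, which closes the way of pyruvate into mitochondria, at 7.27 h (1.49-fold). Of 17 hypoxia response genes 13 passed, 6 of them within 3 h of the mean: Bnip3, a mitophagy receptor, had a 1.98-fold wave with a peak at 12.8 h, Adm, the vasodilator adrenomedullin, a 2.01-fold wave with a peak at 20.4 h, and Epas1, the gene of HIF-2α, a 1.32-fold wave with a peak at 3.42 h. Of 75 nuclear genes for respiratory chain subunits 15 passed (20%, against 24.6% of all tested genes), with folds of 1.12 to 1.28, and 8 did without the libraries with transcripts of other organs (against 19.7%). None of 13 mitochondrially encoded genes passed (limma, 0 at an unadjusted p under 0.05).

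Genes of sugar transport peaked in the light phase and those of amino acid transport at scattered times. Of 9 genes of sugar digestion and transport 6 (66.7%, against 24.6% of all tested genes) passed, 5 of them within 3 h of a mean peak at 8.17 h. Slc2a5, the fructose transporter, rose from 1.29 ± 0.694 units at ZT 1 to 5.28 ± 0.712 at ZT 9 (SD, n = 3; 2.96-fold, peak 9.03 ± 0.488 h (SE), adjusted p = 1.8e-06), and Khk, which phosphorylates fructose, had a 1.46-fold wave with a peak at 7.02 h. Slc5a1, the sodium glucose cotransporter, changed less, 1.32-fold at 10.9 h. Among 17 genes of peptide and amino acid transport 7 (41.2%) passed, led by Slc36a1, a proton coupled amino acid transporter. Slc36a1 was at 204, 233 and 133 units in the 3 libraries of ZT 1, 223, 346 and 239 at ZT 5, 345, 508 and 363 at ZT 9, 264, 252 and 311 at ZT 13, 189, 186 and 152 at ZT 17 and 158, 149 and 132 at ZT 21. Its ZT 9 libraries were at 345 units or more, and ZT 5 replicate 2 overlapped them (2.55-fold, peak 8.96 ± 0.465 h (SE), adjusted p = 8.0e-07). Slc15a1, the peptide transporter PEPT1, had a 1.72-fold wave with a peak at 7.64 h, while Slc1a1, a glutamate transporter, peaked at 21.96 h (1.34-fold). Of 14 lipid absorption genes 5 (35.7%, against 24.6% of all tested genes) passed (2, Dgat2 and Mttp, without the libraries with transcripts of other organs), and Dgat2, which makes triglyceride, had a 2.06-fold wave with a peak at 10.4 h.

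Among 19 genes of ion and water transport 8 passed (42.1%, against 24.6% of all tested genes). Slc9a3r1, a scaffold of apical transporters, had a 1.85-fold wave with a peak at 13.1 h, Slc26a3, the chloride and bicarbonate exchanger of the colon, a 1.72-fold wave with a peak at 13.7 h, and Scnn1a, a subunit of the epithelial sodium channel, a 1.56-fold wave with a peak at 14.2 h. Slc26a3 was at 1314, 1179 and 1017 units in the 3 libraries of ZT 1, 1317, 1283 and 1527 at ZT 5, 1769, 2259 and 1766 at ZT 9, 2259, 1622 and 1847 at ZT 13, 2179.9, 2121 and 1856 at ZT 17 and 1585, 1431 and 1610.4 at ZT 21. Each library of ZT 1 was below each of ZT 9, 13 and 17. The partner subunit Scnn1g did not pass (adjusted p = 0.58): 8.17, 23.1 and 4.45 units at ZT 9, 7.54, 20.3 and 3.77 at ZT 13 and 6.48, 17.6 and 7.16 at ZT 17 put replicate 2 high at each of these times. Of 21 genes of xenobiotic metabolism 14 (66.7%) passed with a mean peak at 12.1 h. Nr1i3, the nuclear receptor CAR, had a 2.45-fold wave with a peak at 11.5 h, the conjugate exporter Abcc2 a 2.12-fold wave with a peak at 9.51 h, the glutathione transferase Gsta1 a 2.57-fold wave with a peak at 15.4 h and the retinal dehydrogenase Aldh1a1 a 1.83-fold wave with a peak at 14.8 h. Of 14 tight junction genes 5 (35.7%) passed with scattered peaks, from Cldn3 at 13.4 h to Ocln at 2.68 h.

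Heat shock genes were highest at ZT 13, in 2 of its 3 libraries. Of 17, 7 passed the 24 h test (41.2%, against 24.6% of all tested genes). Among them were Hsp90aa1 (a 1.77-fold wave with a peak at 17.8 h) and Stip1, a co-chaperone of HSP90 (a 1.701-fold wave with a peak at 17.3 h). Hspa8 was at 2432, 1444 and 1646 units in the 3 libraries of ZT 1, 1575, 1570.2 and 1393 at ZT 5, 1339, 1395 and 1761 at ZT 9, 3222, 2396 and 3615 at ZT 13, 1726, 2184 and 1789 at ZT 17 and 1376, 1477 and 1639 at ZT 21. Hspa8 (chr9:40800984-40810087), the constitutive HSP70, was highest in ZT 13 replicates 1 and 3, and ZT 1 replicate 1, the library with seminal vesicle transcripts, was above ZT 13 replicate 2. Hsph1 was at 119, 36.5 and 57.8 units in the 3 libraries of ZT 1, 41.1, 29.8 and 39.5 at ZT 5, 33.1, 23.6 and 41.1 at ZT 9, 181, 78.02 and 258 at ZT 13, 74.7, 70.5 and 71.9 at ZT 17 and 51.2, 58.1 and 61.7 at ZT 21. Hsph1, a nucleotide exchange factor of HSP70, showed the same libraries high. Hspa1b, the inducible HSP70, was at 275, 69.97 and 704 units at ZT 13 and between 37.3 and 79.2 in the other 15 libraries, so the rise was in replicates 1 and 3 alone, and the 24 h test did not pass (adjusted p = 0.34). Averaged over the 17 genes, log2(value + 1) was 0.763, 0.07200 and 1.08 above the mean of 18 libraries at ZT 13, and 0.312 in ZT 1 replicate 1 against -0.293 and -0.03300 in the other ZT 1 libraries. In IgG gut all 3 ZT 13 libraries were high by the same measure. They were at 0.830, 0.796 and 0.543 above the mean of the 18 IgG libraries, against at most 0.415 at the other times.

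A component with a 12 h period, added to the 24 h wave, passed in 150 genes (0.99%), but in 0 genes when the 18 libraries were fitted without those of IgG (limma, 2409 at an unadjusted p under 0.05, smallest adjusted p = 0.0605). The 150 held 7 of 17 heat shock genes and 5 of 18 endoplasmic reticulum chaperones. The amplitudes of these 12 genes lay between 0.118 (Edem1) and 0.724 (Hsph1) on the log2 scale, with peaks between 1.26 h (Stip1) and 1.89 h (Edem1) and again 12 h later. For Hspa8 the 12 h amplitude was 0.385 ± 0.0624 (SE; adjusted p = 0.0081 by limma). Without ZT 1 replicate 1 and ZT 13 replicate 3, 6 genes (0.0396%) passed and none of these 12, although all 150 had an unadjusted p under 0.05 there and their median amplitude went from 0.171 to 0.160. Heat shock genes had 4 such calls without ZT 1 replicate 1 alone and 2 without ZT 13 replicate 3 alone, while their 24 h calls numbered 13 and 6. The part of transcripts from other organs in these values was not tested. In IgG gut, 12 h components passed in 409 genes (2.7%), 51 of them among the 150. The 409 held 8 of 17 heat shock genes and 5 of 18 endoplasmic reticulum chaperones.

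**Figure D5:**
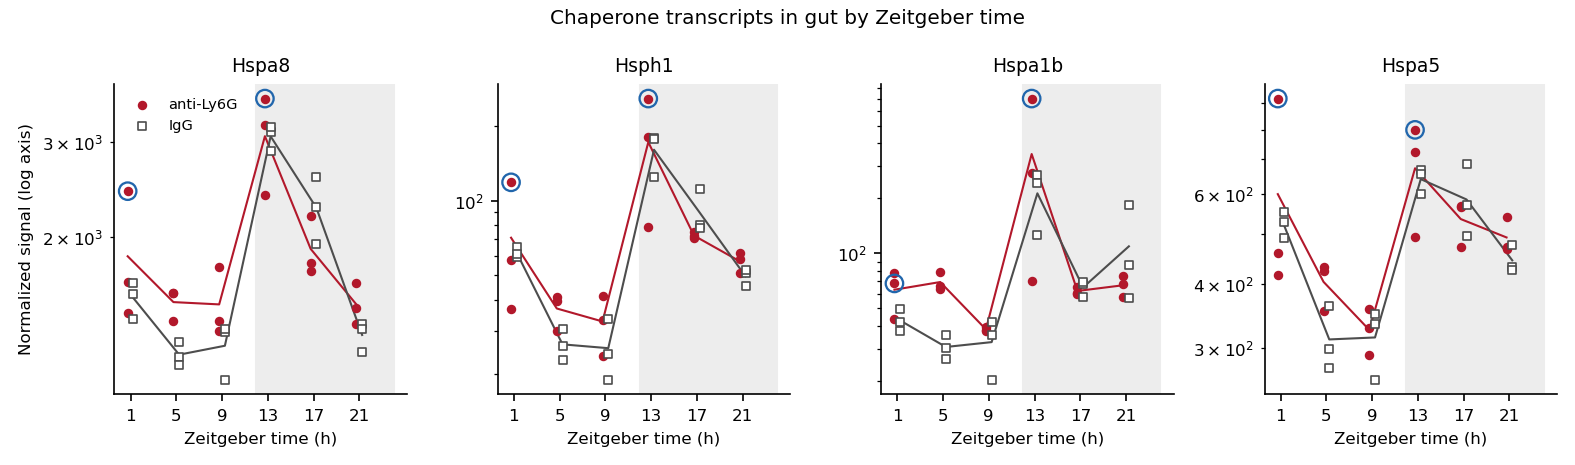
Normalized signal (log axis) of the chaperone genes Hspa8, Hsph1, Hspa1b and Hspa5 by ZT in gut. Filled circles are anti-Ly6G libraries, open squares IgG libraries, lines join the means of 3, shading marks ZT 12 to 24, and blue rings mark ZT 1 replicate 1 and ZT 13 replicate 3 of anti-Ly6G. ZT 13 replicate 3 is the highest library for Hspa8, Hsph1 and Hspa1b, and ZT 1 replicate 1 for Hspa5, at 919.6 units.

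Chaperones of the endoplasmic reticulum took a related course. Of 18, 7 (38.9%, against 24.6% of all tested genes) passed the 24 h test, with a mean peak at 17.9 h. Without ZT 1 replicate 1 and ZT 13 replicate 3, 13 passed (13 and 6 without each of them alone). Hspa5 was at 919.6, 417 and 459 units in the 3 libraries of ZT 1, 432, 355 and 424 at ZT 5, 328, 290.1 and 357 at ZT 9, 723, 495 and 799 at ZT 13, 565, 472 and 569 at ZT 17 and 471, 467 and 539.8 at ZT 21. Hspa5, which encodes the chaperone BiP, was highest in ZT 1 replicate 1, above both other ZT 1 libraries and above all of ZT 13. Calr, the calcium-binding chaperone calreticulin, had a 1.59-fold wave with a peak at 18.7 h, Pdia6, a disulfide isomerase, a 1.54-fold wave with a peak at 19.5 h, and Herpud1, a component of protein degradation at the endoplasmic reticulum, had a 1.83-fold wave with a peak at 11.3 h. Of 37 proteasome subunits 13 (35.1%, against 24.6% of all tested genes) passed, all within 3 h of 19.7 h, with folds of 1.14 to 1.32. Cytosolic ribosomal protein genes passed in 9 of 81 cases, below the 24.6% of all genes, and Rpl18 had the largest wave of them (a 1.198-fold wave with a peak at 11.3 h).

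Immediate early genes, which respond within minutes to growth factors and stress, were called in 11 of 17 cases (64.7%, against 24.6% of all tested genes). Fosb went from 6.35 ± 1.87 units at ZT 5 to 19.7 ± 4.36 at ZT 21 (SD, n = 3; 3.27-fold, peak 20.2 ± 0.752 h (SE), adjusted p = 0.00095). Nr4a1 was at 11.3, 27.97 and 30.04 units in the 3 libraries of ZT 1, 24.5, 13.05 and 9.83 at ZT 5, 19.2, 8.47 and 9.33 at ZT 9, 6.399, 6.78 and 5.18 at ZT 13, 41.9, 13.7 and 23.6 at ZT 17 and 18.2, 56.7 and 22.03 at ZT 21. Nr4a1, an orphan nuclear receptor, was lowest at ZT 13, where all 3 libraries were below the other 15 (a 3.23-fold wave with a peak at 22.3 h), and Egr1, a zinc finger factor, was also lowest there, with all 3 libraries below the other 15 (1.1% of tested genes had this course; a 2.95-fold wave with a peak at 0.405 h). Junb peaked in the light phase, at 10.1 h (1.45-fold). Of 13 glucocorticoid response genes 6 passed (46.2%, against 24.6% of all tested genes). Tsc22d3, which encodes the steroid-induced GILZ, rose from 59.01 ± 7.07 at ZT 1 to 117 ± 9.36 at ZT 13 (2.15-fold, peak 15.6 ± 0.435 h (SE), adjusted p = 2.6e-07), while the metallothioneins Mt1 and Mt2 peaked at 9.11 and 7.38 h (2.27-fold and 3.37-fold). Fkbp5 and Sgk1, further targets of the receptor, did not pass (adjusted p = 0.074 and 0.053).

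Il18, a cytokine of the epithelium, had 48.4, 54.98 and 45.05 units at ZT 13, below the other 15 libraries, and 109, 96.7 and 93.5 at ZT 5 (1.77-fold, peak 2.28 ± 0.6203 h (SE), adjusted p = 7.7e-05). Of 15 mucosal cytokines and chemokines 3 passed (Cxcl5, Il18 and Cxcl13), of 13 pattern recognition receptors 3, led by Tlr2 (a 1.54-fold wave with a peak at 4.95 h) and Tlr4 (a 1.47-fold wave with a peak at 0.842 h), and of 17 interferon-stimulated genes 2, which is 20%, 23.1% and 11.8% beside 24.6% of all tested genes. None of 8 MHC class II genes, 10 B cell, 4 T cell, 6 Paneth cell, 11 goblet cell and 10 fibroblast markers passed (limma; at an unadjusted p under 0.05 the counts were 0, 0, 0, 0, 1 and 1). Without the libraries with transcripts of other organs, Cxcl5, Cxcl13, Tlr4, Cldn3 and Lmod1 did not pass (adjusted p = 0.16, 0.058, 0.13, 0.11 and 0.094). Muc2, the main mucin of goblet cells, was not called (adjusted p = 0.75), nor was Cd74, the invariant chain of MHC class II (0.70). Duoxa2, the maturation factor of the oxidase DUOX2, was the 1 of 7 antimicrobial genes that passed (a 2.17-fold wave with a peak at 21.9 h), and among 12 enterocyte markers 4 (33.3%) did, with folds of 1.17 to 1.41. Ly6g passed with a 1.48-fold wave with a peak at 14.1 h (adjusted p = 0.042), and Cxcr2 did not (adjusted p = 0.12). Alb, a liver gene, passed (adjusted p = 0.028) through ZT 1 replicate 1 and ZT 5 replicates 1 and 3, at 19.8, 19.5 and 17.1 units, and did not without the libraries with transcripts of other organs (0.19). These 3 libraries were also the deepest of anti-Ly6G. The deepest IgG library, ZT 21 replicate 3, had the highest Alb of IgG, at 16.4 units, and also the highest Svs5 of IgG, at 12.0 units. The part of depth or of transcripts from other organs in the Alb values was not tested.

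Set beside IgG gut, the rhythms of the anti-Ly6G libraries were called in fewer genes, and no gene passed the test that its wave differed. The 24 h wave passed in 2659 genes in both treatments, 71.4% of those called in anti-Ly6G and 52.2% of those called in IgG. Among these the anti-Ly6G peak minus the IgG peak had a median of -0.101 h, with quartiles of -0.912 and 0.808 h, and median amplitudes were 0.211 and 0.221. Another 1066 genes passed in anti-Ly6G and 2432 in IgG, but 0 genes (0%) passed the test of the difference (limma, smallest adjusted p = 0.264), and 984 had an unadjusted p under 0.05. With ZT 21 left out in both treatments the number of genes whose 24 h rhythm differs between anti-Ly6G and IgG was also 0. The smallest p-values among named genes were those of Rsc1a1, H6pd and Fastkd5, and fitted peaks of Rsc1a1 were at 15.3 h in anti-Ly6G and 4.97 h in IgG.

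List by list the counts in the 2 treatments stood apart in places where the difference was not called. Heat shock genes passed in 7 of 17 cases in anti-Ly6G and 16 of 17 in IgG, respiratory chain subunits in 15 and 53 of 75, and cytosolic ribosomal proteins in 9 and 48 of 81, beside 24.6% and 33.6% of all genes. The smallest adjusted p of the difference among heat shock genes was 0.816 (limma). Median fitted amplitudes in anti-Ly6G and IgG were 0.475 and 0.407 for the 29 DNA replication genes and 0.705 and 0.622 for the 24 mitosis genes. Cholesterol synthesis (0.236 and 0.180) and smooth muscle genes (0.159 and 0.0851) leaned the same way, and heat shock genes the other way (0.277 and 0.408). Over all genes called in both treatments the median amplitudes were 0.211 and 0.221. For the DNA replication and mitosis lists too the smallest adjusted p of the difference did not pass, at 0.5302 and 0.839 (limma). The genes of a list are read in the same libraries and are not independent of each other.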

How the data were processed

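RNA was measured in 36 gut libraries (18 anti Ly6G, 18 IgG) from 200 ng of RNA as 50 nt single reads, per the labels' protocols. The submitters' processing notes name CASAVA 1.8, cutadapt 1.7.1, RSEM 1.7.1, limma 3.46 and mm10. The values are a normalized signal per gene that the authors deposited: an expected count plus 0.5, divided by a scaled library size, as the steps of the low values show. Genes with a mean of at least 1 unit over the 36 libraries were tested on log2(value + 1) with limma 3.58.1 (R 4.3.3; empirical Bayes with trend), one fit giving each treatment its own 24 h cosine and sine, so that both treatments share the estimate of spread. The F test of the 24 h pair, of an added 12 h pair, of ZT as a factor and of the difference between treatments were adjusted by Benjamini-Hochberg over 15158 genes. The fit was tested on simulated data. Gene positions are from GENCODE (GRCm38), and 39 identifiers had none.

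Samples were grouped by the labelled treatment and ZT. Replicate numbers are shared between groups, but same-numbered libraries did not deviate together throughout (45 pairs, r from -0.0831 to 0.319). The median r was 0.079 for these pairs and -0.0395 for libraries of other numbers. They were not taken as pairs, and a fit with the number as a block is among the alternatives. No 2 libraries agreed within sampling noise (smallest chi-square per gene 6.45). Named genes were the core clock, the 10 smallest 24 h p-values outside it, the 5 largest amplitudes in each 4 h window among called genes with a mean of at least 5 units, up to 4 called members of a list by amplitude or the 2 smallest p-values of one without calls, the 8 smallest 12 h p-values, the 3 smallest p-values of the difference, and organ markers raised in ZT 1 replicate 1 or ZT 13 replicate 3. Gene models without a common name, immunoglobulin and T cell receptor segments, small RNAs and those organ markers were left out of the ranked choices. Other genes named were chosen after their values were seen. The members and the gene lists were chosen with earlier results of these data known. Alternatives were other pseudocounts and filters, quantile scaling, array weights, the 18 libraries alone, ZT as a factor, the replicate block, and leaving out libraries or times. Results for some genes are not reported here.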

Additional observations from a re-analysis of the deposited data

How the results depend on the processing

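The number of genes with a 24 h rhythm with anti-Ly6G stayed within 1.5 times of 3725 in each alternative: 3718 and 3715 with a pseudocount of 0.1 and 5, 3622 with no filter, 3602 with a mean of at least 4 units, 3743 after quantile scaling, 3577 with array weights, 3180 from the 18 libraries alone, 3177 to 3793 with 1 library left out and 2570 to 3985 with 1 time left out. The number of genes with a 12 h component with anti-Ly6G, 150, moved more. It was 95 with array weights, 6 without ZT 1 replicate 1 and ZT 13 replicate 3, 40 to 248 with 1 library left out (70 without ZT 1 replicate 1, 98 without ZT 1 replicate 3, 76 and 60 without ZT 9 replicates 1 and 2, 248 and 45 without ZT 13 replicates 1 and 3, 61 and 40 without ZT 21 replicates 1 and 2), and 0 from the 18 libraries alone (limma, smallest adjusted p 0.0605, 2409 genes at an unadjusted p under 0.05). The number of genes whose 24 h rhythm differs between anti-Ly6G and IgG was 0 to 1 with 1 library left out (1 without ZT 17 replicate 2) and 1 with ZT 5 left out. The cause of these moves was not tested. The fit with a replicate block, in which the numbers are shared but are not known to pair the mice, gave 3729 genes for 24 h. It gave 161 for 12 h and 0 for the difference, and 13 of the 18 libraries correlated best with their own number. Of 171 named genes that were called, 92 were called in every alternative, 25 were not without the libraries with transcripts of other organs, 35 were not in at least 1 fit with a library left out and 79 in at least 1 with a time left out. None of the 171 reversed in these alternatives.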

Other observations

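Of 14 autophagy and lysosome genes 7 passed the 24 h test (limma, adjusted p under 0.05), beside 24.6% of all tested genes. They included Tfeb, the transcription factor of lysosome genes (1.704-fold, peak 13.6 h), Wipi1, which acts in autophagosome formation (1.61-fold, peak 1.99 h), and Map1lc3b, which encodes the autophagosome protein LC3B (1.31-fold, peak 6.58 h). Of 14 stem cell and Wnt target genes 4 passed, among them Axin2, a feedback inhibitor of Wnt signalling (1.49-fold, peak 0.92 h), and Sox9, a factor of crypt progenitors (1.46-fold, peak 22.4 h). Nampt, the rate-limiting enzyme of NAD salvage (1.39-fold, peak 15.8 h), was 1 of 4 of 12 NAD genes that passed, and 2 passed without the libraries with transcripts of other organs. Of 11 iron and heme genes 3 passed, with Slc40a1, the iron exporter ferroportin (1.36-fold, peak 6.37 h). Of 20 ribosome biogenesis genes 5 passed, led by Nop56 (1.35-fold, peak 22.6 h), and 2 passed without those libraries. Rbm3, a cold-induced RNA-binding protein, also passed (1.43-fold, peak 8.58 h).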
